A study of Mus musculus with 220 samples.

Results

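Growth hormone signalling in the liver was described through its receptor Ghr, the transcription factor Stat5b, the feedback inhibitors Socs2 and Cish, the secreted targets Igf1 and Igfals, the sex-biased repressors Cux2 and Bcl6, the urinary protein Mup3 and the prolactin receptor Prlr. The 10 genes were chosen by name for their place in this pathway, and all of their probe sets were taken. Of the 45037 probe sets analysed, 20 carried the symbol of 1 of them and represented 9 of the 10 genes, out of 17097 genes in all. No probe set was paired with Prlr alone, and Prlr was not analysed here. Where a gene had several probe sets, the one with the highest mean over all mice (the lead probe set) gave its value unless another is named. Values are log2 signals, so that a difference of 1 is a doubling, and levels of different genes on the array cannot be set against each other.

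Liver RNA came from 220 female mice of the Ath-HMDP, a panel of F1 crosses built to study atherosclerosis across many mouse strains. Each mouse had a mother of 1 of 96 inbred strains and a C57BL/6J father with transgenes for human CETP and APOE-Leiden, which make plasma lipoproteins more like those of humans. Every mouse thus had at least 1 C57BL/6J copy of its genome and both transgenes, ate chow for 8 weeks and then a Western diet for 16 weeks, and were killed at 24 weeks of age. The mothers belonged to 4 recombinant inbred panels, whose strains each fixed a random mixture of 2 progenitor genomes, C57BL/6J being 1 of them, and to 29 classical inbred strains (65 mice): AXB/BXA from A/J (21 strains, 47 mice), BXD from DBA/2J (34 strains, 83 mice), BXH from C3H/HeJ (4 strains, 8 mice) and CXB from BALB/cJ (8 strains, 17 mice). The label of 1 BXD strain, BXD24/TyJ-Cep290<rd16>/J (3 mice), also names the rd16 allele of Cep290. A strain had 1 to 4 mice, and a mouse is named below by its maternal strain. Mice labelled C57BL/6J had C57BL/6J parents on both sides.

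Growth hormone from the pituitary binds its receptor on hepatocytes, the receptor-bound kinase JAK2 phosphorylates STAT5, and STAT5 enters the nucleus and drives Igf1, Igfals, Socs2 and Cish. SOCS2 and CISH then dampen the receptor complex, and circulating IGF1 feeds back on the pituitary. In rodents the hormone is released in pulses in males and almost continuously in females, and this difference in timing sets much of the sex bias of liver transcripts: in mouse liver Cux2 is a female-biased repressor of male-biased genes, Bcl6 is a male-biased repressor that competes with STAT5 for DNA, and Mup3 belongs to a family of male-biased, growth hormone dependent secreted proteins.

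STAT5 binds the palindrome TTCNNNGAA, which reads the same on both strands. RefSeq promoter windows of 300 bases (250 before and 50 after a start site, GRCm38.p6) were searched for it, and 8.3% of 32851 windows held it. Among the measured genes, 8 had 14 windows, of which 5 windows of 3 genes held the motif: Cish, Igfals and Bcl6. The other windows (1 of 3 for Igfals and those of Ghr, Stat5b, Igf1, Cux2 and Mup3) did not hold these letters, which is a statement about the windows alone. Only 0.457% of all windows held the motif 2 or more times, and the Cish window and 1 Bcl6 window were among them. The sequences of these 3 genes are shown because they are the members whose start-site windows hold the palindrome, and capitals mark each match.

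Cish, chr9:107296409-107296678, plus strand, 250 bases before the start and 20 after it: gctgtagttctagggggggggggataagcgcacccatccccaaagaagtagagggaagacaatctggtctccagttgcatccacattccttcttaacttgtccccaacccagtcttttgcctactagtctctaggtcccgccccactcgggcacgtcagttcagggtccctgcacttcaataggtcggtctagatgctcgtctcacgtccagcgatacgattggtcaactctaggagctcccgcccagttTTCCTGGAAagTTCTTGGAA
Igfals, chr17:24877594-24877843, plus strand, 250 bases before the start: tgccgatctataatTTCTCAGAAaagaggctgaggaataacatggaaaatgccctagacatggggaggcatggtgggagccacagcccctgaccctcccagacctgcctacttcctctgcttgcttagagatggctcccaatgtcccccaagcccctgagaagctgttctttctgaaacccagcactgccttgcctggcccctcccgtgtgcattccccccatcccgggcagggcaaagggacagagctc
Igfals, chr17:24878163-24878191, plus strand, around the match of a second start site: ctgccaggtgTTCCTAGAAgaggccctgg
Bcl6, chr16:23988853-23989102, minus strand, 250 bases before the start: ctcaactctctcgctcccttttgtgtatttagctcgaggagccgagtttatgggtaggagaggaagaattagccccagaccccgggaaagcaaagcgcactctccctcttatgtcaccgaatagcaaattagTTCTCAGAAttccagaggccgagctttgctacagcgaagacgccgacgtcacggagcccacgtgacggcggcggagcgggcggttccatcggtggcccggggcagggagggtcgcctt
Bcl6, chr16:23981433-23981461, minus strand, first match of a second start site: aggccgcggcTTCCTGGAAagttacttct
Bcl6, chr16:23981387-23981415, minus strand, next match of that start site: ggcaggagtgTTCTGTGAAatccttagag
Bcl6, chr16:23981353-23981381, minus strand, last match of that start site: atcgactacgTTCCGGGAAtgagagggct

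Albumin (Alb) averaged 13.52 over all mice, with strain means of 13.37 to 13.74. The 5 skeletal muscle markers averaged 2.45 to 3.38, below the median probe set mean of 3.46. Muscle markers were higher in BXD14/TyJ, with strain means of 5.09 for Acta1, 4.87 for Mylpf and 3.62 for Tnnt3. Ghr was called high in that strain (0.31 against the other strains by limma, adjusted p = 0.00347), and the part of these markers was not tested. The median correlation of an array with the others was lowest in BXD55/RwwJ mouse 1 (0.9813) and AXB2/PgnJ mouse 3 (0.9823), and no 2 arrays were identical. Without those 2 arrays the strain test below called the same number of genes of the pathway, 9, and 18 probe sets. In whole liver, fewer cells of a type and less RNA per cell cannot be told apart. The labels give no litter, cage or collection day, so that what mice of a strain shared beyond their genotype cannot be told apart from it, and p-values measure the spread between mice of a strain.

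The first question was how far these genes differed with the maternal strain. All 9 measured genes differed among the 87 strains with 2 or more mice (limma's moderated F-test over 211 mice, adjusted p from 1.51e-17 to 0.000111), in an array where 59.2% of genes did so. Of the 20 probe sets 18 passed, against 47.9% of all probe sets; the exceptions were the dim probe sets 1422102_PM_a_at of Stat5b (mean 3.74, adjusted p = 0.0993) and 1441476_PM_at of Socs2 (mean 2.81, adjusted p = 0.0592). The share of variance that lay between strains was highest for Ghr at 0.652 (95% interval 0.533 to 0.749) and Mup3 at 0.646 (0.527 to 0.745), followed by Igfals at 0.547 (0.408 to 0.667) and Igf1 at 0.496 (0.35 to 0.625). Cux2 and Cish both had 0.487 (0.34 to 0.618 and 0.339 to 0.617), Socs2 0.454 (0.303 to 0.59), Stat5b 0.384 (0.227 to 0.531) and Bcl6 0.307 (0.145 to 0.462). The median over all genes was 0.251, and the intervals of neighbouring genes in this order overlapped.

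**Figure D1:**
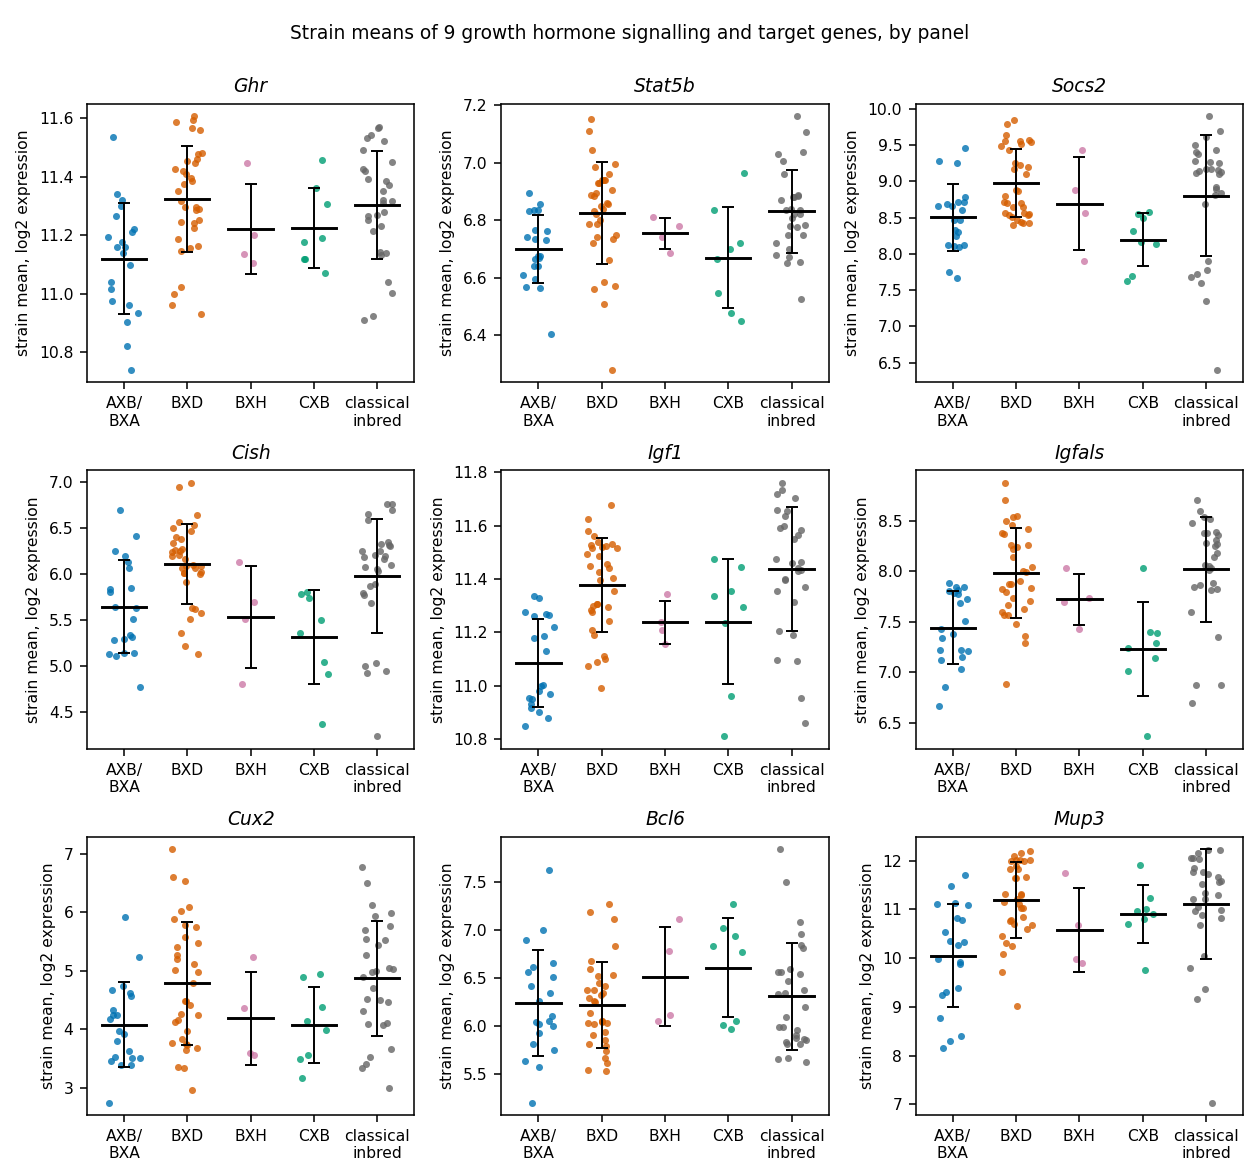
Strain means (points, log2 expression) of the 9 measured genes, 1 plot per gene, by panel, with the panel mean (line) and SD across strains (bar). Igf1 and Igfals lie lower in AXB/BXA strains than in classical inbred strains, and 1 classical inbred strain each sits far below the rest for Mup3 (A/J) and Socs2 (129X1/SvJ).

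Ghr, which starts the pathway, was bright and varied within a narrow band. Strain means ran from 10.74 in AXB5/PgnJ (1 mouse) through a median of 11.27 to 11.61 in BXD75/RwwJ, a 1.83-fold range, and the SD of mice within a strain was 0.12. The lowest strains with several mice were BXA14/PgnJ (10.67, 10.97 and 10.82) and AXB15/PgnJ (10.83, 10.99 and 10.89), and the highest were BXD75/RwwJ (11.64 and 11.57), BXD55/RwwJ (11.7, 11.52 and 11.56) and BXD73/RwwJ (11.63, 11.66 and 11.47). Every mouse of those low strains was below every mouse of those high strains. The strains were picked as the ends of this order, so that such a gap follows largely from the choice. No 2 neighbouring strains in the order of 96 differed by more than the within-strain SD. The other Ghr probe sets followed the lead over strains (r = 0.795 for 1451501_PM_a_at and 0.721 for 1451871_PM_a_at, 96 strains), and the 1451871_PM_a_at mean was lowest in C57BLKS/J at 6.06. Stat5b had a similarly narrow range, from 6.28 in BXD22/TyJ (1 mouse) through 6.79 to 7.16 in SWR/J (7.12 and 7.2), with a within-strain SD of 0.15. Its lowest strain with several mice was BXA16/PgnJ at 6.44, 6.69 and 6.08, a spread between mice wider than that of the 3 BXD55/RwwJ mice (7.2, 7.0 and 7.25). The second Stat5b probe set, near the dim end of the array, followed the first only loosely (r = 0.344).

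The feedback inhibitors varied over a wider range. Socs2 ran from 6.4 in 129X1/SvJ through 8.71 to 9.89 in BUB/BnJ, an 11.2-fold range, and Cish from 4.23 in 129X1/SvJ through 6.03 to 6.99 in BXD48/RwwJ, a 6.76-fold range, with within-strain SDs of 0.57 and 0.5. The 129X1/SvJ mice had Socs2 at 6.55 and 6.25, while the next strain up, LP/J, had 7.79 and 6.92 and the highest, BUB/BnJ, had 9.49, 9.86 and 10.33. The step between 129X1/SvJ and LP/J, 0.95, was 1 of only 2 steps in the pathway that exceeded the within-strain SD. Cish was 4.23 and 4.24 in 129X1/SvJ, 4.58, 4.24 and 4.27 in CXB8/HiAJ and 4.52 and 5.03 in BXA2/PgnJ, against 7.09 and 6.89 in BXD48/RwwJ. The bright second Socs2 probe set, 1418507_PM_s_at, followed the lead closely (r = 0.978), and the dim ones less so (0.62 and 0.268).

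The secreted targets had unequal ranges. Igf1, the circulating growth factor made mainly by hepatocytes, ran from 10.81 in CXB8/HiAJ (10.84, 10.74 and 10.85) through 11.33 to 11.76 in C57L/J (1 mouse), a 1.93-fold range with a within-strain SD of 0.19. Igfals, the acid-labile subunit that holds IGF1 and its binding protein in a large complex in plasma, ran from 6.37 in the same strain, CXB8/HiAJ (6.3, 6.24 and 6.56), through 7.83 to 8.87 in BXD5/TyJ (8.89, 8.5 and 9.23), a 5.66-fold range with a within-strain SD of 0.42. NOD/ShiLtJ stood among the 3 highest strains for both genes, with Igf1 at 11.77 and 11.7 and Igfals at 9.01 and 8.39. The other Igf1 probe sets followed the lead at r = 0.892 (1434413_PM_at), 0.806 (1419519_PM_at) and 0.601 (1452014_PM_a_at) over strains.

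Cux2, female-biased in mouse liver, had the widest within-strain spread of the 9 genes. Its strain means ran from 2.74 in BXA25/PgnJ (1 mouse) through 4.44 to 7.08 in BXD5/TyJ (6.51, 7.28 and 7.45), with a within-strain SD of 0.84. The range is at least 20.3-fold, since its low end lies among the probe sets without clear signal. C57BL/6J ranked second of 96 with 6.94 and 6.62, and BXD18/TyJ (2.85, 3.32 and 2.7) and KK/HlJ (2.73 and 3.27) lay below the array's median probe set mean. The second Cux2 probe set followed the first at r = 0.932, but not for every strain's place. C57BL/6J averaged 5.23 on it, and the highest strain was BXD1/TyJ at 6.23. Set against the other strains by limma, C57BL/6J was called on the first probe set (2.24, adjusted p = 0.0119) and not on the second (0.94, adjusted p = 0.181). Bcl6 ran from 5.2 in AXB2/PgnJ (5.28, 5.3 and 5.03) through 6.23 to 7.84 in 129X1/SvJ (8.2 and 7.48), a 6.23-fold range with a within-strain SD of 0.53. The dim second Bcl6 probe set, 1450381_PM_a_at (mean 3.78), followed the lead at r = 0.758. Against the other strains by limma it was not called in AXB2/PgnJ (-0.37, adjusted p = 0.351) and was called in CXB8/HiAJ (0.86, adjusted p = 0.00108).

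Mup3 had a 36.5-fold range, from 7.04 in A/J through 11.03 to 12.23 in SWR/J, with a within-strain SD of 0.71. The A/J mice had 8.85, 6.62 and 5.64, BXA14/PgnJ 7.05, 8.7 and 8.73, and AXB15/PgnJ 8.84, 7.68 and 8.41, while the SWR/J mice had 12.45 and 12.0. The step between A/J and BXA14/PgnJ, 1.12, was the other step that exceeded the within-strain SD. The Mup3 probe set is of a kind that can read several transcripts, and Mup genes are near-identical, so that its value may include other Mup transcripts.

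Panels were compared on strain means, since strains and not mice are their replicates. By limma's F-test across the 5 panels Cish, Ghr, Igf1, Igfals and Mup3 differed, 5 of 9 genes against 6.77% of all probe sets. In AXB/BXA strains 4 genes were lower than in classical inbred strains, where 4.65% of all probe sets passed in either direction. Igf1 averaged 11.08 ± 0.17 in AXB/BXA strains and 11.44 ± 0.23 in classical inbred strains (SD, 21 and 29 strains), a difference of -0.35 (SE 0.06, adjusted p = 2.04e-05), and all 4 Igf1 probe sets passed. Igfals averaged 7.44 ± 0.36 and 8.02 ± 0.52 in the same order (-0.58, SE 0.13, adjusted p = 0.00284), Mup3 10.05 ± 1.06 and 11.1 ± 1.13 (-1.06, SE 0.27, adjusted p = 0.0115) and Ghr 11.12 ± 0.19 and 11.3 ± 0.19 (-0.18, SE 0.05, adjusted p = 0.0247). The other Ghr probe sets missed the threshold (1451501_PM_a_at -0.24, adjusted p = 0.0591, and 1451871_PM_a_at -0.31, adjusted p = 0.101), and so did their F-tests across panels (0.086 and 0.127). The groups overlapped for all of them.

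In CXB strains Igfals alone passed, at 7.23 ± 0.46 in CXB strains and 8.02 ± 0.52 in classical inbred strains (SD, 8 and 29 strains; -0.78, SE 0.18, adjusted p = 0.0283), where 0.173% of all probe sets passed. Cish had 5.31 ± 0.51 in CXB strains and 5.98 ± 0.62 in classical inbred strains, which did not pass for this contrast (-0.67, SE 0.2, adjusted p = 0.157). No gene of the pathway differed between BXD or BXH and classical inbred strains (0 of 9 each by limma, also 0 at an unadjusted p under 0.05, where 1.01% and 0.00444% of all probe sets passed). These contrasts share the classical inbred strains.

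The next comparison set the 4 other panel progenitors against C57BL/6J, the strain of the fathers, so that each contrast compares F1 mice with pure C57BL/6J mice. Mup3 was lower in A/J, BALB/cJ and C3H/HeJ, Ghr in A/J and BALB/cJ, and Cux2 in BALB/cJ. All of these contrasts share the same 2 C57BL/6J mice. In A/J 2 of 9 genes were called, both lower, where 3.52% of all probe sets were called lower and 4.11% higher (7.63% in all). In BALB/cJ 3 were called, all lower (3.01% of probe sets lower, 3.93% higher, 6.94% in all). In C3H/HeJ 1 was called, lower (2.36% lower, 3.5% higher, 5.87% in all). In DBA/2J limma called 0, also 0 at an unadjusted p under 0.05 (1.02% lower, 0.842% higher, 1.86% in all).

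Mup3 was 8.85, 6.62 and 5.64 in A/J, 10.17, 9.76 and 9.45 in BALB/cJ, 9.15 and 9.18 in C3H/HeJ and 11.54, 10.51 and 11.09 in DBA/2J, against 12.11 and 12.0 in C57BL/6J. No mouse of the 4 strains reached the C57BL/6J values, and the A/J mice lay furthest below them. The differences were -5.02 in A/J (SE 0.63, adjusted p = 1.02e-09), -2.89 in C3H/HeJ (SE 0.69, adjusted p = 0.00334) and -2.26 in BALB/cJ (SE 0.63, adjusted p = 0.0128), with -1.01 in DBA/2J (SE 0.63, adjusted p = 0.624). The A/J call passed under each of 9 other settings, from leaving out each mouse to other moderation and filters. The BALB/cJ call was lost without BALB/cJ mouse 3 (adjusted p = 0.0586) or either C57BL/6J mouse (0.157 and 0.0814), and the C3H/HeJ call without C3H/HeJ mouse 1 (0.0514) or C57BL/6J mouse 1 (0.0695).

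Cux2 was 3.69, 4.24 and 3.07 in BALB/cJ, 5.01, 4.5 and 4.61 in A/J, 4.55 and 4.44 in C3H/HeJ and 6.4, 5.3 and 5.62 in DBA/2J, against 6.94 and 6.62 in C57BL/6J. The BALB/cJ difference was -3.12 (SE 0.75, adjusted p = 0.00286) and was lost without C57BL/6J mouse 1 (adjusted p = 0.0895). Those of A/J (-2.07, SE 0.75, adjusted p = 0.0741) and C3H/HeJ (-2.29, adjusted p = 0.0831) missed the threshold, but passed with the 5 progenitor strains fitted alone or with the dim probe sets left out. Ghr was 11.17, 10.78 and 11.06 in A/J and 11.14, 11.2 and 11.06 in BALB/cJ, against 11.57 and 11.41 in C57BL/6J. Both strains lay below C57BL/6J without overlap (-0.49, SE 0.11, adjusted p = 0.0016 in A/J; -0.36, SE 0.11, adjusted p = 0.0301 in BALB/cJ), although the A/J call was lost without C57BL/6J mouse 1 (0.13) and the BALB/cJ call under 6 of 9 settings, among them without BALB/cJ mouse 1 (0.0659) or 3 (0.121) and without C57BL/6J mouse 1 (0.424) or 2 (0.0568). The Ghr probe set 1451501_PM_a_at was also lower in C3H/HeJ (-0.72, adjusted p = 0.0036) and BALB/cJ (-0.49, adjusted p = 0.0441). Of the Igf1 probe sets, 1452014_PM_a_at (-0.54, adjusted p = 0.0117) and 1419519_PM_at (-0.6, adjusted p = 0.0497) were lower in A/J, while the lead probe set missed the threshold (-0.49, adjusted p = 0.0575).

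**Figure D2:**
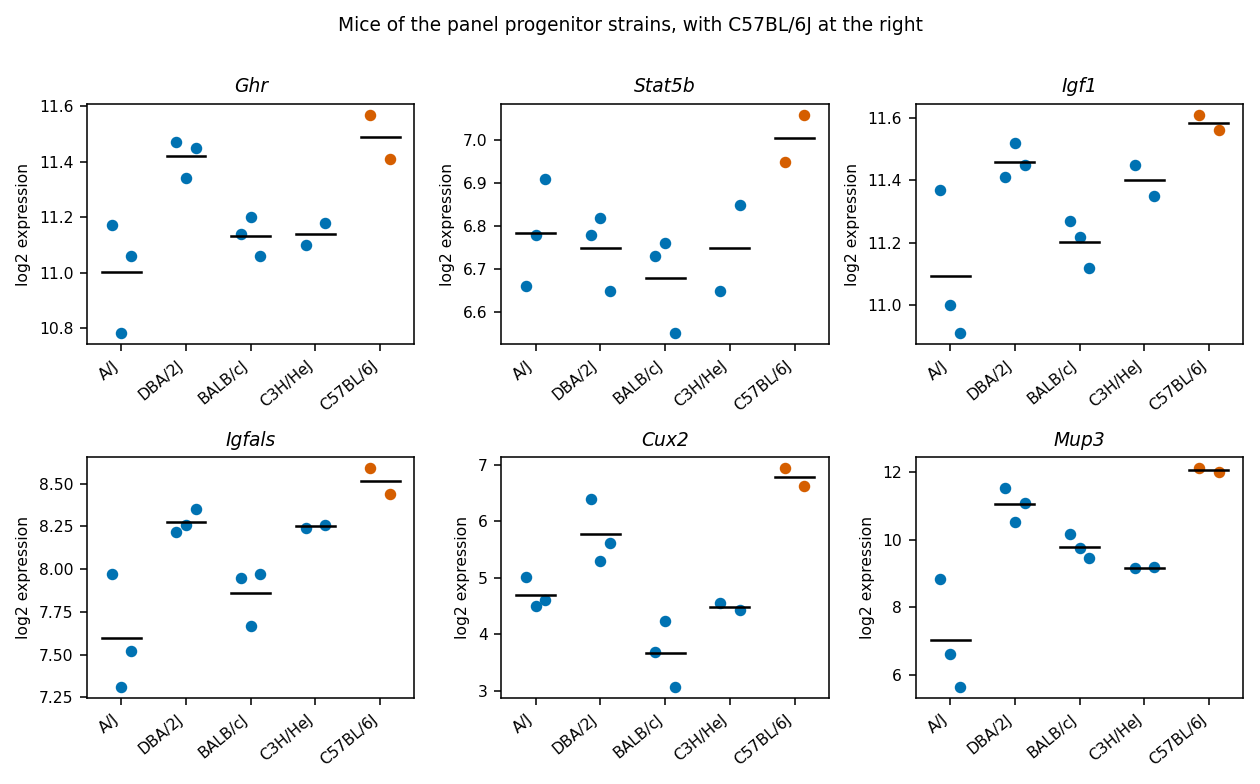
Log2 expression of 6 genes in each mouse (points) of A/J, DBA/2J, BALB/cJ, C3H/HeJ and C57BL/6J, with strain means as lines. On these lead probe sets every mouse of the other strains lies below both C57BL/6J mice for 5 of the 6 genes. For Ghr the DBA/2J mice overlap them.

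On lead probe sets, every mouse of all 4 strains was below both C57BL/6J mice for Cux2, Igf1, Igfals, Mup3 and Stat5b. On the second Cux2 probe set, however, DBA/2J averaged 5.3, against 5.23 in C57BL/6J. The counts that follow rest on lead probe sets. By strain, all mice were below both C57BL/6J mice for 7 of 9 genes in A/J (17.2% of all probe sets), 7 in BALB/cJ (17.8%), 7 in C3H/HeJ (24.3%) and 5 in DBA/2J (13.3%). Socs2 and Cish overlapped with C57BL/6J in all 4. Cholangiocyte markers (6 of 7 measured) had mean levels per mouse of 5.63 to 5.74 in C3H/HeJ and 5.1 to 5.37 in BALB/cJ. They were 4.3 to 4.7 in A/J, 3.62 to 4.91 in DBA/2J and 4.13 to 4.28 in C57BL/6J. Endothelial markers (7 of 7 measured) were 5.83 to 6.28 in BALB/cJ and 6.23 to 6.32 in C3H/HeJ. They were 6.32 to 6.73 in A/J, 6.69 to 7.09 in DBA/2J and 6.92 to 7.16 in C57BL/6J. Hepatocyte markers (10 of 10 measured) were 11.57 to 11.68 in A/J, 11.67 to 11.72 in BALB/cJ and 11.62 in both C3H/HeJ mice. They were 11.63 to 11.84 in DBA/2J and 11.79 to 11.86 in C57BL/6J. Among A/J, BALB/cJ and C3H/HeJ, A/J lay furthest below C57BL/6J for Mup3. On the cholangiocyte and endothelial lists A/J lay closest to C57BL/6J. On the neutrophil list (4 of 6 measured) it lay furthest above, at 5.02 to 6.06 against 4.25 to 4.88 in C57BL/6J. On the hepatocyte list the lowest value was in A/J. In DBA/2J the ranges of all these lists overlapped those of C57BL/6J. The part of these markers in the differences was not tested.

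Recombinant inbred strains were then placed against both of their progenitors, as a description of strain means. For Mup3, 0 of 21 AXB/BXA strains lay outside the span of A/J and C57BL/6J, with the lowest at 8.16 in BXA14/PgnJ and the highest at 11.69 in AXB2/PgnJ. A/J was the lowest of all 96 strains and C57BL/6J ranked 8 from the top, so that few strains of any panel could lie outside this span. Among BXD strains 14 of 34 lay below both progenitors for Mup3 (DBA/2J 11.05, C57BL/6J 12.06) and 3 above. For Cux2, 18 of 21 AXB/BXA strains lay below both progenitors (A/J 4.71, C57BL/6J 6.78), as did 27 of 34 BXD strains (DBA/2J 5.77). Such counts, here and below, depend on where the progenitors lie among all strains. The share of other genes with such counts was not computed, so that they do not set these genes apart. All 8 CXB strains lay below both BALB/cJ and C57BL/6J for Socs2 and Cish, and 7 of 8 for Igfals. Both progenitor means were 6.2 for Cish, and the highest CXB strain, CXB12/HiAJ, had 5.81, but the 2 C57BL/6J mice had 5.5 and 6.91, so that this strain lay above 1 of them. For Igf1, 11 of 21 AXB/BXA strains and 21 of 34 BXD strains were below both. The C57BL/6J mean rests on 2 mice and ranked in the top 12 of 96 strains for Cux2, Igfals, Mup3, Stat5b, Ghr and Igf1.

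Within panels, all 9 genes differed among the classical inbred strains (35.4% of all probe sets). Among BXD strains 6 did (Cish, Cux2, Ghr, Igfals, Mup3 and Stat5b; 32.5%) and among AXB/BXA strains 6 (Bcl6, Cish, Cux2, Ghr, Mup3 and Socs2; 21.7%). Among BXH strains Mup3 alone passed (adjusted p = 0.022; 1.15%). None passed among CXB strains (0 of 9 by limma, 4 at an unadjusted p under 0.05; 1.71%). These counts rest on lead probe sets: the second Bcl6 probe set passed among CXB (adjusted p = 0.0163) and BXD strains (0.00997). It did not pass among classical inbred (0.0978) or AXB/BXA strains (0.183). Among AXB/BXA strains Socs2 passed narrowly on its lead (limma adjusted p = 0.0499) and missed on the bright 1418507_PM_s_at (0.106). Cux2 also missed there on its second probe set (0.0538, against 0.0182 on the lead). The lead probe set of Igf1 passed among classical inbred strains (adjusted p = 0.00019) and not among BXD (0.105) or AXB/BXA strains (0.188), but the Igf1 probe set 1452014_PM_a_at did pass among BXD strains (adjusted p = 0.000771). Whether the panels differed in this was not tested.

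Each strain was next set against the mean of the other 95. Of the 9 genes in 96 strains, 69 gene and strain pairs in 37 strains passed after adjustment over all probe sets and strains together, where 3.49% of all such pairs did (1.81% higher, 1.67% lower). Ghr had the most, 9 strains higher and 8 lower, and Mup3 (2 higher, 8 lower) and Igfals (2 higher, 7 lower) were called mainly in low strains, while Cux2 had 5 higher and 1 lower. Of the 67 pairs from strains with 2 or more mice, 13 passed without each of their mice in turn and 54 did not. The 13 were Socs2 and Cish in 129X1/SvJ, Cish, Igf1 and Igfals in CXB8/HiAJ, Cux2 in BXD5/TyJ, Mup3 in A/J, AXB15/PgnJ and BXA14/PgnJ, and Ghr in AXB15/PgnJ, BXA14/PgnJ, BXD55/RwwJ and BXD73/RwwJ.

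In 129X1/SvJ (1.81% of probe sets called), Socs2 was lower by -2.36 than the mean of the other strains (adjusted p = 1.03e-05) and Cish by -1.66 (adjusted p = 0.000639). The Ghr transcript was 11.61 and 11.45 there, above the median of all strains, 11.27, and Mup3 was 12.36 and 12.08, the second highest strain. Receptor protein and growth hormone were not part of these data. Igfals, at 7.05 and 6.34, was lower by -1.12 (adjusted p = 0.0128; 0.421 without mouse 2) and Bcl6, at 8.2 and 7.48, higher by 1.56 (adjusted p = 0.00339; 0.232 without mouse 1). On the second Bcl6 probe set the 129X1/SvJ difference was 0.59 and did not pass (adjusted p = 0.153). In LP/J (2.52% called) Socs2 was lower too (-1.4, adjusted p = 0.0237; 0.46 without mouse 2). The 129X1/SvJ mice had cholangiocyte marker means of 3.61 and 3.54, against a median of 4.52 over all mice, and acute phase means of 11.72 and 11.6, against 11.58, and the part of either was not tested.

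In CXB8/HiAJ (5.58% of probe sets called) both secreted targets and an inhibitor were low. Igfals was lower by -1.45 (adjusted p = 9.14e-06), Cish by -1.53 (adjusted p = 8.48e-05) and Igf1 by -0.51 (adjusted p = 0.000877). Socs2 (7.79, 7.71 and 7.39) was lower by -1.12 (adjusted p = 0.0287) and Bcl6 (6.95, 7.52 and 7.35) higher by 0.98 (adjusted p = 0.0412), and both were lost without any 1 of the 3 mice (adjusted p 0.0743 to 0.175 for Socs2 and 0.0582 to 0.225 for Bcl6). Cux2 was 3.25, 2.97 and 3.25, at the low end of all strains, but was not called. The CXB8/HiAJ mice had an array control difference (3' minus 5' probe sets, a sign of RNA quality) of 0.3, 0.49 and 0.25, against a median of 0.6 and a lowest value of 0.22 over all mice, and cholangiocyte means of 5.27, 5.33 and 4.58. Over strains this control correlated with Igf1 at 0.402, with Igfals at 0.229 and with Cish at 0.046. In BXD5/TyJ (5.25% called) 3 of the genes were high. Cux2 was higher by 2.54 (adjusted p = 0.000126), Igfals by 1.08 (adjusted p = 0.00197; 0.0695 without mouse 3) and Socs2, at 9.77, 9.55 and 10.04, by 1.06 (adjusted p = 0.0457; lost without any 1 mouse). Its cholangiocyte means were 3.75, 3.79 and 3.42 and its stellate cell means 6.54, 6.46 and 6.24, against medians of 4.52 and 6.87, and over strains Cux2 correlated with these lists at -0.508 and -0.527. The part of the markers and of RNA quality in either strain was not tested.

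Ghr and Mup3 were low together in BXA14/PgnJ (6.79% called), with Ghr at -0.44 (adjusted p = 3.93e-06) and Mup3 at -2.73 (adjusted p = 3.34e-07) against the other strains, and in AXB15/PgnJ (9.2% called), with Ghr at -0.36 (adjusted p = 0.000295) and Mup3 at -2.58 (adjusted p = 1.66e-06). The same mice had cholangiocyte marker means of 6.58, 5.98 and 6.13 (BXA14/PgnJ) and 5.9, 5.81 and 5.0 (AXB15/PgnJ), against a median of 4.52 over all mice, and hepatocyte marker means of 11.54 to 11.73 against 11.74. BXD55/RwwJ, where Ghr was higher by 0.34 (adjusted p = 0.000843), had cholangiocyte means of 3.1, 3.54 and 3.42, and 12.9% of its probe sets were called. The part of these markers was not tested.

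**Figure D3:**
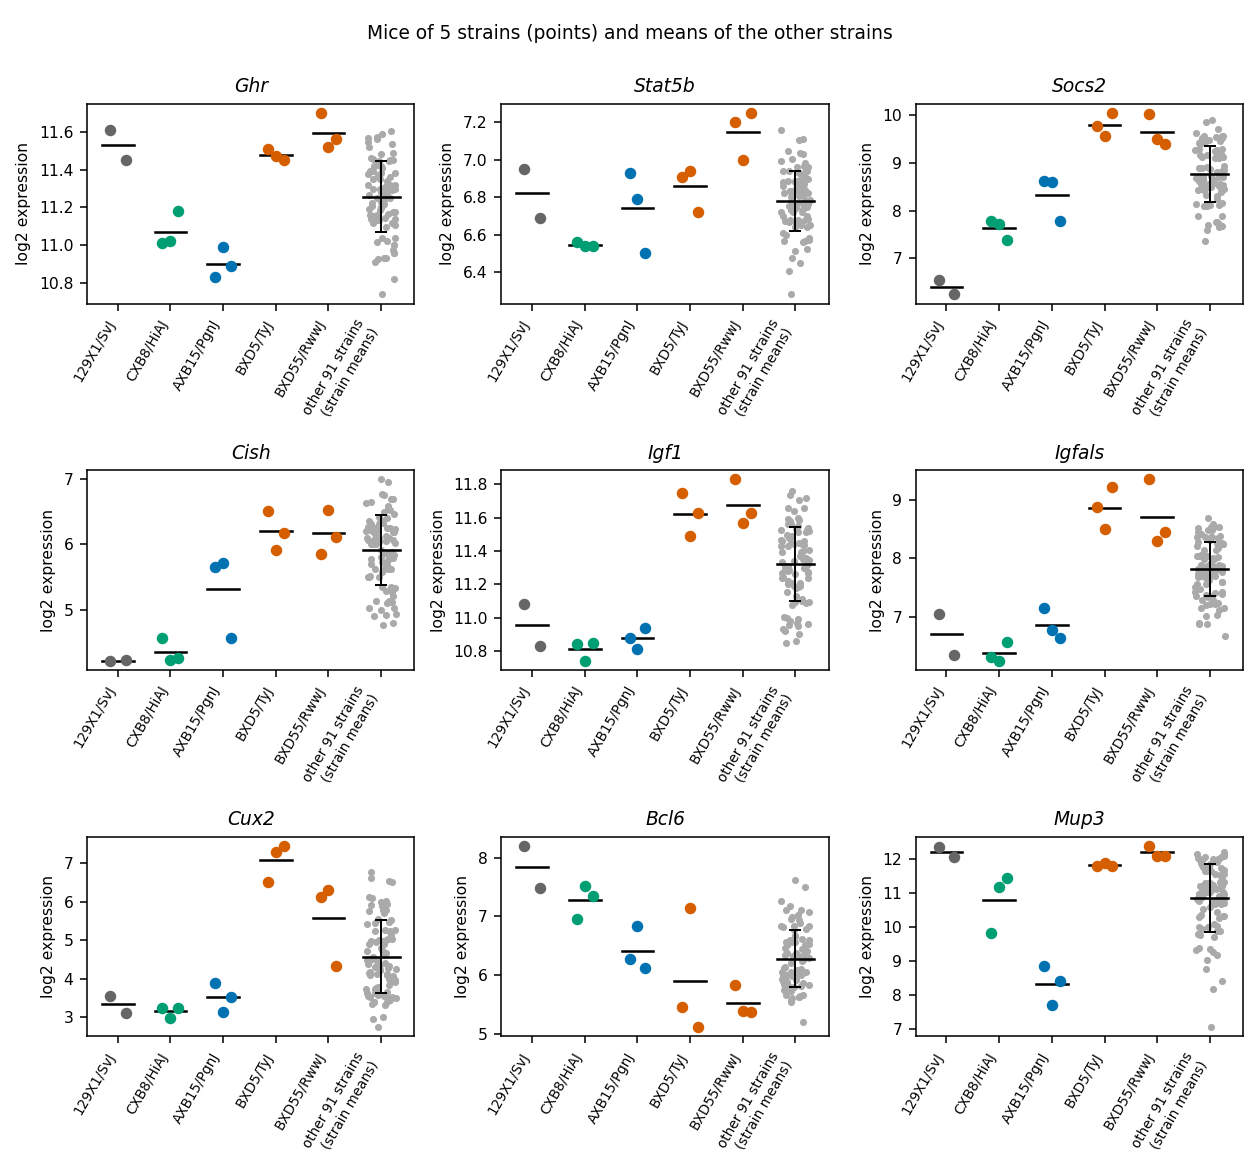
Log2 expression of the 9 genes in each mouse (coloured points) of 129X1/SvJ, CXB8/HiAJ, AXB15/PgnJ, BXD5/TyJ and BXD55/RwwJ, beside the means of the other strains (grey points, with their mean and SD). 129X1/SvJ lies below the other strains for Socs2 and Cish while its Ghr and Mup3 lie high, and CXB8/HiAJ lies low for Cish, Igf1 and Igfals.

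BXD71/RwwJ was the strain whose mice differed most among themselves, for 5 of the 9 genes. Mouse 1 had Socs2 at 6.68, Cish at 4.3, Igf1 at 10.69, Igfals at 6.63 and Cux2 at 3.34. Mice 2 and 3 had 9.02 and 10.24, 5.93 and 6.64, 11.43 and 11.8, 8.24 and 8.76, and 7.12 and 7.62 for the same genes. Mouse 1 was thus below both other mice of its strain for all 5, and also for Ghr (11.26, against 11.58 and 11.52), and above them for Bcl6 (7.18, against 5.87 and 5.72), with Mup3 at 11.87, against 12.25 and 12.16, and Stat5b at 6.88, against 7.07 and 6.71. Its marker means were 11.86 for hepatocytes (11.88 and 11.83 in mice 2 and 3), 3.55 for cholangiocytes (3.78 and 3.48) and 11.47 for the acute phase list (11.36 and 11.49).

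The 9 genes were then correlated pairwise over the 96 strain means (36 pairs, Pearson's r, 100000 permutations, two-sided, adjusted over the pairs; 1e-05 is the smallest unadjusted p these permutations can give). Of the 36 pairs 26 passed, 22 positive and 4 negative, and 26 passed by Spearman's rho. The 26 pairs that passed by Pearson's r kept their sign without the 2 strains farthest from the median of the first gene. The share of other gene pairs that would pass was not computed. These counts therefore have no background rate and do not set the pathway apart from other genes.

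Socs2 and Cish were the closest pair (r = 0.829, rho = 0.823, adjusted p = 1.8e-05; r = 0.805 without 129X1/SvJ and LP/J). Within panels r was 0.901 in AXB/BXA, 0.604 in BXD, 0.738 in CXB and 0.899 in classical inbred strains, and it was 0.816 over the deviations of 211 mice from their strain mean. Igf1 and Igfals followed (r = 0.801, rho = 0.826, adjusted p = 1.8e-05; r = 0.786 without CXB8/HiAJ and AXB6/PgnJ), with 0.783, 0.793, 0.669 and 0.765 in the same panels and 0.783 within strains. Igfals also followed Cux2 (r = 0.745, rho = 0.775, adjusted p = 1.8e-05; 0.738 without CXB8/HiAJ and BXA2/PgnJ; panels 0.643, 0.809, 0.623 and 0.668), and Igf1 did so less closely (r = 0.645, rho = 0.666, adjusted p = 1.8e-05; 0.629 without CXB8/HiAJ and AXB6/PgnJ; panels 0.64, 0.61, 0.882 and 0.525). Between the inhibitors and the targets, Socs2 with Igfals gave r = 0.652 over strains (rho = 0.633, adjusted p = 1.8e-05; 0.651 without 129X1/SvJ and LP/J) and 0.816 within strains, but panels ranged from 0.3 in AXB/BXA to 0.805 in CXB.

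**Figure D4:**
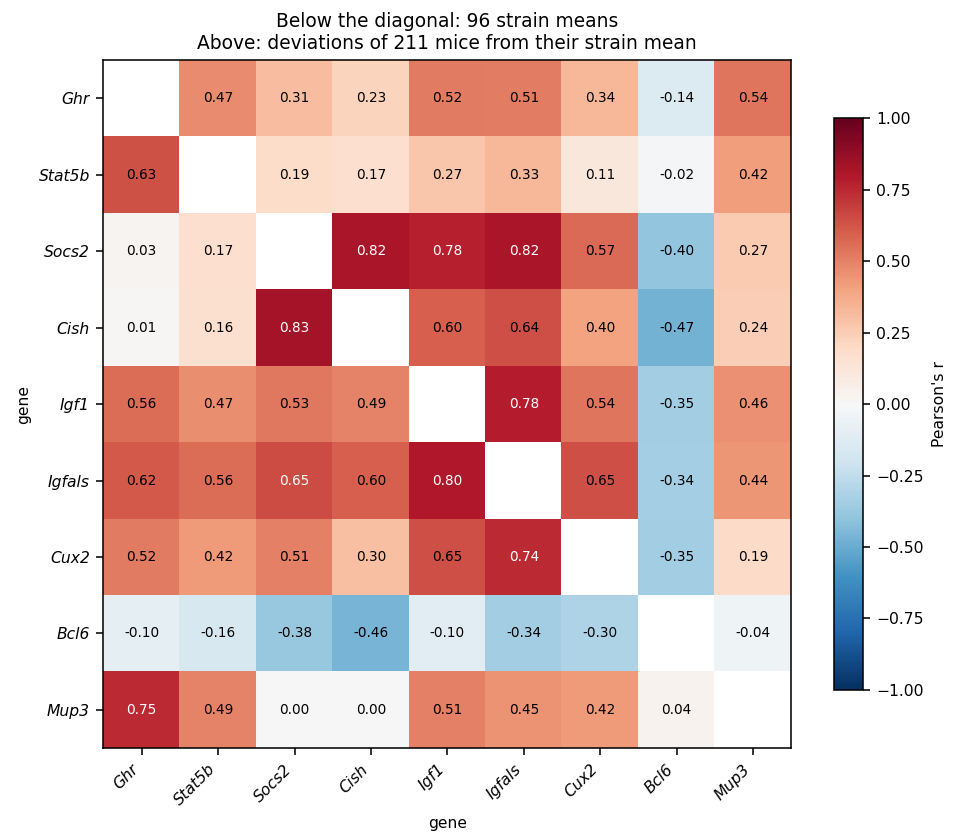
Pearson's r of each pair of the 9 genes, over 96 strain means below the diagonal and over deviations of 211 mice from their strain mean above it, coloured from -1 (blue) to 1 (red). Socs2 with Cish and Igf1 with Igfals stand out on both sides, and Bcl6 is negative with Cish, Socs2, Igfals and Cux2.

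Ghr followed Mup3 (r = 0.749, rho = 0.777, adjusted p = 1.8e-05; 0.717 without AXB5/PgnJ and BXA14/PgnJ; AXB/BXA 0.859, BXD 0.807, CXB 0.363, classical inbred 0.599) and Stat5b (r = 0.633, rho = 0.644, adjusted p = 1.8e-05; 0.625 without the same 2; 0.435, 0.703, 0.403 and 0.628 in the same panels). The Ghr transcript did not track those of the inhibitors over strains: r was 0.031 with Socs2 (rho = 0.073, adjusted p = 0.834) and 0.009 with Cish (rho = 0.033, adjusted p = 0.987). Within strains it was 0.311 and 0.226 for the same pairs. Mup3 likewise gave 0.002 with Socs2 (rho = 0.076, adjusted p = 0.988) and -0.002 with Cish (rho = 0.021, adjusted p = 0.988). Bcl6 was negative with 4 of the genes, at r = -0.461 with Cish (rho = -0.412, adjusted p = 1.8e-05), -0.381 with Socs2 (rho = -0.386, adjusted p = 0.000266), -0.345 with Igfals (rho = -0.275, adjusted p = 0.000855) and -0.305 with Cux2 (rho = -0.304, adjusted p = 0.00389). Without the 2 farthest strains these were -0.37, -0.295, -0.301 and -0.313, and each was negative in all 4 panels. With Igf1 (r = -0.104, rho = -0.091, adjusted p = 0.376) and Mup3 (r = 0.039, rho = -0.054, adjusted p = 0.792) Bcl6 did not pass.

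**Figure D5:**
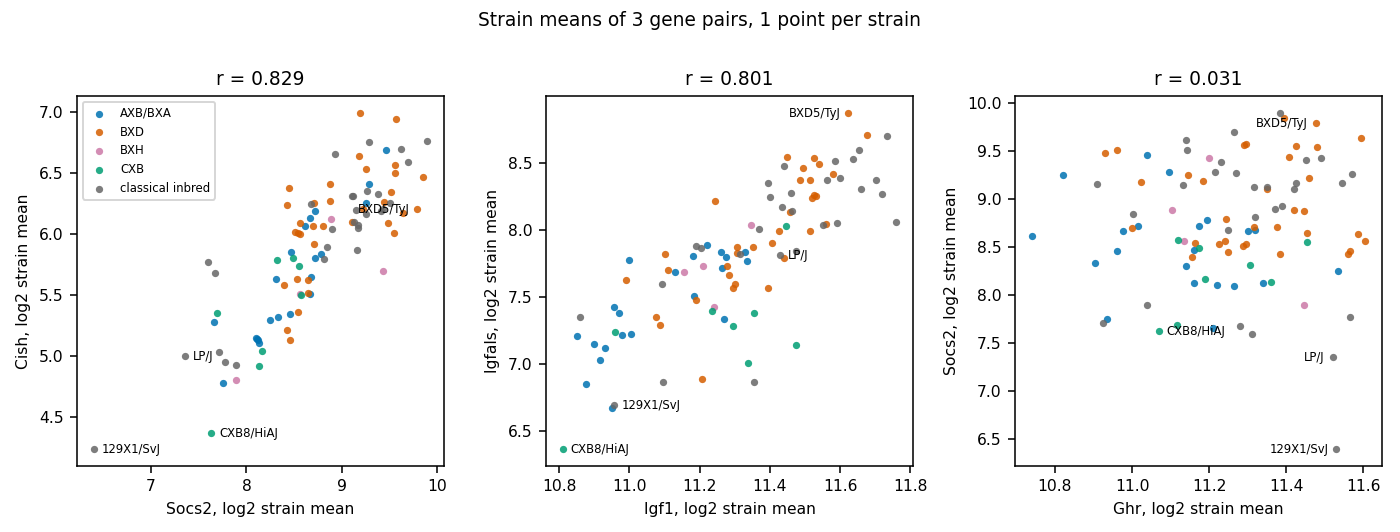
Strain means (1 point per strain, coloured by panel, log2 expression on both axes) of Socs2 and Cish, Igf1 and Igfals, and Ghr and Socs2, with r above each plot. The first and second plots slope upward with r = 0.829 and 0.801, and in the third (r = 0.031) 129X1/SvJ has the lowest Socs2 with a Ghr above the median.

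The first principal component of all arrays, 20% of the variance, followed Ghr closely over strain means (r = 0.902, with Mup3 defining its sign) and Socs2 and Cish hardly at all (0.063 and -0.021), with Mup3 at 0.73, Cux2 at 0.686, Igfals at 0.63, Stat5b at 0.614, Igf1 at 0.53 and Bcl6 at -0.2. Cholangiocyte markers ran the other way, with r = -0.807 for Ghr and -0.669 for Mup3, and hepatocyte markers with them (0.669 and 0.55). With this component removed, 19 of the 36 pairs passed: Socs2 with Cish kept r = 0.832 and Igf1 with Igfals 0.709, Ghr with Mup3 gave 0.307 (adjusted p = 0.00633), against 0.749 with the component in place, and Ghr with Cux2 gave -0.307 (adjusted p = 0.00609), against 0.523. The share of other gene pairs that would pass with the component removed was not computed either. With the component as a covariate the strain share of Ghr was 0.293, against 0.652 without it. Those of Socs2 and Cish were 0.506 and 0.507.

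By strain means, the genes most like each member were named among 10113 genes that differed among strains. These correlations over 96 strains share arrays and are given as descriptions. Ghr was closest to Hykk (0.904), Fn3k (0.894), which encodes fructosamine-3-kinase, and the cytochrome P450 gene Cyp2d10 (0.885). Stat5b was closest to Khnyn (0.776), Rtp3 (0.72) and the retinal reductase gene Dhrs3 (0.716). Socs2 and Cish were each other's closest gene, followed for Socs2 by Nrep (0.769) and Onecut1 (0.718), which encodes the liver transcription factor HNF6, and for Cish by Onecut1 (0.707) and the galactosyltransferase gene B4galt1 (0.702).

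Igf1 was closest to Igfals, Tpcn1 (0.78), an endolysosomal channel, and Paqr9 (0.743), and Igfals to C730029A08Rik (0.823), Gm2788 (0.816) and Paqr9 (0.814). Cux2 was closest to Acot3 (0.839), a peroxisomal thioesterase, the transcriptional cofactor gene Trim24 (0.828) and the transporter gene Slc22a26 (0.803). Bcl6 had no close neighbour, with Tcim (0.442), Mtnr1a (0.414) and Ngp (0.403) at the top. Mup3 was closest to its paralog Mup5 (0.903), which may share probes with it, to the hepatic sulfotransferase gene Sult2a8 (0.825) and to Il1rap (0.789).

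Because the sex bias of liver genes depends on growth hormone timing, Cux2 and Mup3 were set beside genes known as sex-biased in mouse liver, in these female mice. Of 17 female-biased genes that differed among strains, 15 correlated positively with Cux2 over strains and 12 above 0.5 (median 0.551), while of 10112 genes that differed among strains 43.9% were positive and 6.01% above 0.5 (median -0.076). The female-biased genes ran from -0.189 for Prom1 to 0.839 for Acot3. Over deviations of mice from their strain mean they ran from -0.089 for Slc22a27 to 0.765 for Trim24. Cux2 also followed the first principal component over strains (r = 0.686), and its part here was not tested. The male-biased genes split: of 16, 10 were positive and 3 below -0.5 (median 0.207), from -0.686 for the glutathione transferase gene Gstp1 to 0.471 for the fatty acid elongase gene Elovl3. Mup3, itself male-biased, was positive with 16 of 18 female-biased genes (median 0.414, highest Cyp17a1 at 0.674) and 11 of 15 male-biased genes (median 0.31, highest Elovl3 at 0.664), against 45.3% of all such genes (median -0.061). Bcl6 was positive with 2 of 18 female-biased genes (median -0.212) and 8 of 15 male-biased genes (median 0.01), against 56.6% of all such genes (median 0.025).

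Among genes of growth hormone and prolactin signalling, Ghr, Stat5b, Socs2 and Cish included, 19 of 21 measured genes differed among strains, against 59.2% of all genes (median strain share 0.487, against 0.251). The receptor-like protein gene Sirpa (0.734), the adaptor genes Shc1 (0.644) and Grb10 (0.594) and the phosphatase gene Ptpn6 (0.59) had the highest shares beside Ghr (0.652), Jak2 had 0.345 and Stat5a 0.289, and Ptpn2 and Socs1 did not pass. Of the SOCS family 7 of 8 passed (median 0.451), among them Socs6 (0.631) and Socs3 (0.493). Of the IGF axis 9 of 14, or 64.3%, passed (median 0.457), a share near that of all genes, led by the binding protein gene Igfbp3 (0.675), the protease gene Htra1 (0.674) and Igfbp2 (0.629).

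Sex-biased genes also differed among strains, against 59.2% of all genes: 18 of 18 female-biased genes passed (median 0.628), led by the sulfotransferase gene Sult3a1 (0.796) and the cytochrome P450 genes Cyp2b13 (0.759) and Cyp2b9 (0.719), and 16 of 18 male-biased genes (median 0.586), led by the organic anion transporter gene Slco1a1 (0.839), Susd4 (0.811) and Elovl3 (0.751). The female list includes Cux2 and the male list Mup3 and Bcl6, which are counted again here. Against C57BL/6J, female-biased genes were called lower in 5 of 18 cases in A/J (0 higher, median difference -0.81, against 0 over all genes), 5 in BALB/cJ (0 higher, -0.95, against 0), 6 in C3H/HeJ (0 higher, -1.26, against 0.01) and 1 in DBA/2J (1 higher, 0.12, against 0.01). Cyp17a1, a steroid hydroxylase, was lower in A/J (-3.71, adjusted p = 3.05e-06), BALB/cJ (-2.63, adjusted p = 0.00172) and C3H/HeJ (-3.21, adjusted p = 0.00047), and Sult3a1 likewise (-2.92, -3 and -3.21, adjusted p 0.0195 to 0.0271). Male-biased genes went both ways: in C3H/HeJ 4 were higher, among them the hydroxylase gene Cyp4a12a (2.56, adjusted p = 0.0428), and 3 lower. In A/J 1 was higher and 4 lower, in BALB/cJ 2 and 3, and in DBA/2J 0 and 1. Over all probe sets 3.52% were called lower in A/J, 3.01% in BALB/cJ, 2.36% in C3H/HeJ and 1.02% in DBA/2J. The shares called higher were 4.11%, 3.93%, 3.5% and 0.842% in the same order. Igfbp3 was lower in BALB/cJ (-1.88, adjusted p = 6.43e-08) and C3H/HeJ (-1.4, adjusted p = 0.000502), and Mup5 was lower in the same 3 strains as Mup3 (-2.43 in A/J, -1.07 in BALB/cJ and -1.38 in C3H/HeJ, adjusted p from 7.31e-10 to 0.0147).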

How the data were processed

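Liver RNA of each of 220 female mice was measured on 1 Affymetrix HT MG-430 PM array. The deposited values are on a log2 scale, made by the authors with GCOS and RMA according to the submitters' processing notes (robust multi-array averaging, which corrects background, quantile-normalizes arrays and summarises probes); no version or batch correction is named there. RMA evens out array distributions, and sequence variants between strains can weaken probe binding. The deposited log2 values ran from 1.9 to 13.94, with array medians of 3.43 to 3.57. After removal of 104 array controls, 45037 probe sets were analysed, of which 28898 carried 1 gene symbol by the platform annotation; 551 carried several and were not named. The number of arrays limits the precision. Groups were the maternal strains of the labels, and replicate numbers were given in accession order.

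Tests were two-sided limma 3.58.1 fits (R 4.3.3) with eBayes and Benjamini-Hochberg adjustment over all probe sets, called at an adjusted p under 0.05: an F-test over 87 strains, panels on strain means, progenitor contrasts and strain contrasts in a fit of all 220 mice. The strain share is the part of the variance assigned to strain in a random-effects model. Strain contrasts were adjusted over all probe sets and strains together. The fits were tested on simulated data. The members and gene lists were chosen with earlier results of these data known. Besides the members, the text names the 3 highest and lowest strains of each, its 3 most similar genes, up to 4 genes of a list by strain share, and the highest and lowest correlates of Cux2 and Mup3 in a list; BXD71/RwwJ and other list genes were chosen after their values were seen. Alternatives were leaving out replicates, other moderation, filters, centring, covariates, probe set means, subsets of strains and other correlations.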

Additional observations from a re-analysis of the deposited data

Results flagged for a closer look

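In BXD20/TyJ, the only strain with 4 mice, 2 of the 20 probe sets had a mouse apart from the other 3. For the Igf1 probe set 1419519_PM_at the highest mouse had 10.65, against 10.38, 10.40 and 10.43, a gap of 0.837 of the range, and for the Stat5b probe set 1422103_PM_a_at the lowest mouse had 6.86, against 6.98, 7.0 and 7.0, a gap of 0.858. Chance flags about 1 in 20 such groups, and 20 were looked at.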

How the results depend on the processing

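The 9 genes passed the strain test under every alternative run except without mouse 2 of each strain, where 8 did and Socs2 was lost. Leaving out mice by number, the count over all probe sets ranged from 12846 to 21560 (21592 with all mice) and the median strain share from 0.401 to 0.651 (0.487). Leaving out 1 mouse at a time, the genes called against C57BL/6J ranged from 1 to 3 in A/J (2 with all mice), 0 to 3 in BALB/cJ (3) and 0 to 1 in C3H/HeJ (1). With the 5 progenitor strains alone 5 genes were called in A/J and 2 in C3H/HeJ, with probe sets above the median mean 4 and 3, and with the mean of a gene's probe sets 3 in A/J and 2 in C3H/HeJ, against 2 in BALB/cJ. Within panels, leaving out mice by number gave 2 to 8 genes in BXD (6), 3 to 6 in AXB/BXA (6), 0 to 1 in CXB (0) and 1 to 8 in classical inbred strains (9), and the mean of a gene's probe sets gave 1 in CXB. Of the 36 pairs, 9 passed in AXB/BXA strains alone, 0 in CXB and 12 in classical inbred strains, against 26 over all strains. Part of each drop comes with fewer strains or mice, and none of these counts has a direction. With the first principal component removed, 3 pairs that had passed took the opposite sign: Ghr with Cux2 (-0.307, against 0.523), Cux2 with Mup3 (-0.155, against 0.424) and Igfals with Mup3 (-0.02, against 0.449). By permutation only Ghr with Cux2 passed with its new sign (adjusted p = 0.00609). Cux2 with Mup3 (0.183) and Igfals with Mup3 (0.908) no longer passed. Leaving out single mice of a strain and the 2 arrays least like the others was chosen after seeing the data. No paired analysis was possible because the labels give no replicate numbers that groups share.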
